A study of Schizosaccharomyces pombe with 10 samples.

Results

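The genes described here form a belt of chromosome arm that lies 100 to 200 kb inward from the 4 ends of chromosomes I and II of the fission yeast Schizosaccharomyces pombe. A gene was a member if its smallest annotated start lay in that interval, counted on build ASM294v2 from the nearest end of the assembled chromosome. Non-coding rows whose identifiers start with SPNCRNA were left out, and so were 6 genes that the rule names, 5 of which lie in the belt. This gave 157 of 7268 annotated rows, with 49 on the left arm of chromosome I, 38 on its right arm, 31 on the left arm of chromosome II and 39 on its right arm. The rule uses position and identifiers and no measured value, but it was set with earlier results of these data known. Of the 157 members, 149 are annotated as protein coding, 2 as tRNA, 2 as snoRNA and 1 as rRNA genes, and 3 identifiers had no match in the RefSeq gene table that supplied the gene names and products.

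The question the belt addresses is how far inward from each end transcripts differ once Set2 is lost. The outer stretches of these arms, the subtelomeres, carry few highly transcribed genes and are packaged in repressive chromatin; on their inner side lie the condensed knobs, which depend on the protein Sgo2. Set2 is the enzyme that methylates a lysine of histone H3 behind elongating RNA polymerase II, and that mark is read by histone deacetylase complexes that keep transcription within genes and subtelomeres low. One of those complexes, Clr6 complex II, contains the PHD-finger proteins Cph1 and Cph2.

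Poly(A)-enriched RNA was sequenced from 5 strains with 2 libraries each, all of mating type h-, grown at 30 °C in the rich medium 2xYES to an optical density between 0.6 and 1.2. The parent called wt carries the alleles his3 d1, ura4-d18, leu1-32 and ade6-m216, and the cph1Δ and cph2Δ strains carry the same alleles plus replacement of cph1 or cph2 by the KANMX cassette. The parent called wt2 is listed as h- with no further allele, and set2Δ is an h- strain with set2 replaced by KANMX. Each deletion is represented by 1 strain. Separate cultures are not stated for the 2 libraries of each strain, so the p-values below measure the spread between these libraries.

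The libraries held 9711537 to 13051467 reads assigned to genes. Levels are given as normalised read counts (CPM, which relates a gene's count to the size of its library, scaled by the trimmed mean of M-values), and differences as log2 fold changes with their standard errors (SE). Tests were edgeR quasi-likelihood F-tests in 1 fit of all 10 libraries, with Benjamini-Hochberg adjusted p-values over the 5067 genes that passed a filter on low counts; "higher" and "lower" below mean an adjusted p under 0.05. The deleted genes matched the labels. In cph1Δ, cph1 fell by 4.53 on the log2 scale, and in cph2Δ, cph2 fell by 4.75. The ura4 gene was at 0 CPM in both wt libraries and at 142 CPM in both wt2 libraries.

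Of the 157 members, 128 passed the filter and were tested. The other 29 all share exon positions with another annotated gene; 21 of them had 0 counts in every library and none had more than 42 counts over the 10 libraries. Counting did not use strand, so reads from a stretch where 2 genes overlap cannot be given to either. Of the tested members other than set2, 78 share exon positions with another gene and 49 do not.

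Set2 itself is a belt member. It lies on the right arm of chromosome I at 5408180-5411132, 171.0 kb from the end. Its level was 102 and 110 CPM in the wt2 libraries, 105 and 104 CPM in the wt libraries and 8.60 and 8.25 CPM in the set2Δ libraries, a decrease of 3.65 on the log2 scale (SE 0.17, adjusted p = 7.7e-07). It was left out of all counts in set2Δ, which therefore cover 127 tested members.

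In set2Δ, 26 of the 127 members were higher than in wt2 and 0 were lower. Over all 5067 genes tested, 4.32% were higher and 0.572% lower, while 20.5% of the members were higher. The members' median log2 fold change was 0.41, against 0.03 over all genes tested. Also at an unadjusted p under 0.05, edgeR found 0 members lower, and DESeq2 found 0 lower. The number rests on both wt2 libraries: it was 7 without wt2 replicate 1 and 5 without wt2 replicate 2, and 13 without set2Δ replicate 1. Among the 49 members that share no exon positions with another gene, 12 were higher. At an unadjusted p under 0.05 edgeR found 51 of the 127 members higher, and DESeq2 called 32 higher. No share over all genes is given at an unadjusted p or for DESeq2, here or below. Such counts are therefore not to be set beside 4.32%.

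The belt sat between the outermost 100 kb and the stretch from 200 to 300 kb. In the outermost 100 kb, 57 of 109 tested genes were higher with a median of 3.62. From 200 to 300 kb, 13 of 145 were higher with a median of 0.12. Of these 13, 8 lay on the left arm of II, where 8 of 38 genes (21.1%) were higher with a median of 0.36. The other arms had 1 of 27 (left I), 2 of 40 (right I) and 2 of 40 (right II). Within the belt, the difference lay mainly in its outer part. Between 100 and 150 kb, 21 of 56 members (37.5%) were higher and the median log2 fold change was 0.79. Between 150 and 200 kb, 5 of 71 members (7.04%) were higher and the median was 0.13. With each library left out in turn, the outer count ran from 5 without wt2 replicate 2 to 13 without set2Δ replicate 1. The inner count was 0 without either wt2 replicate or without set2Δ replicate 1.

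**Figure D1:**
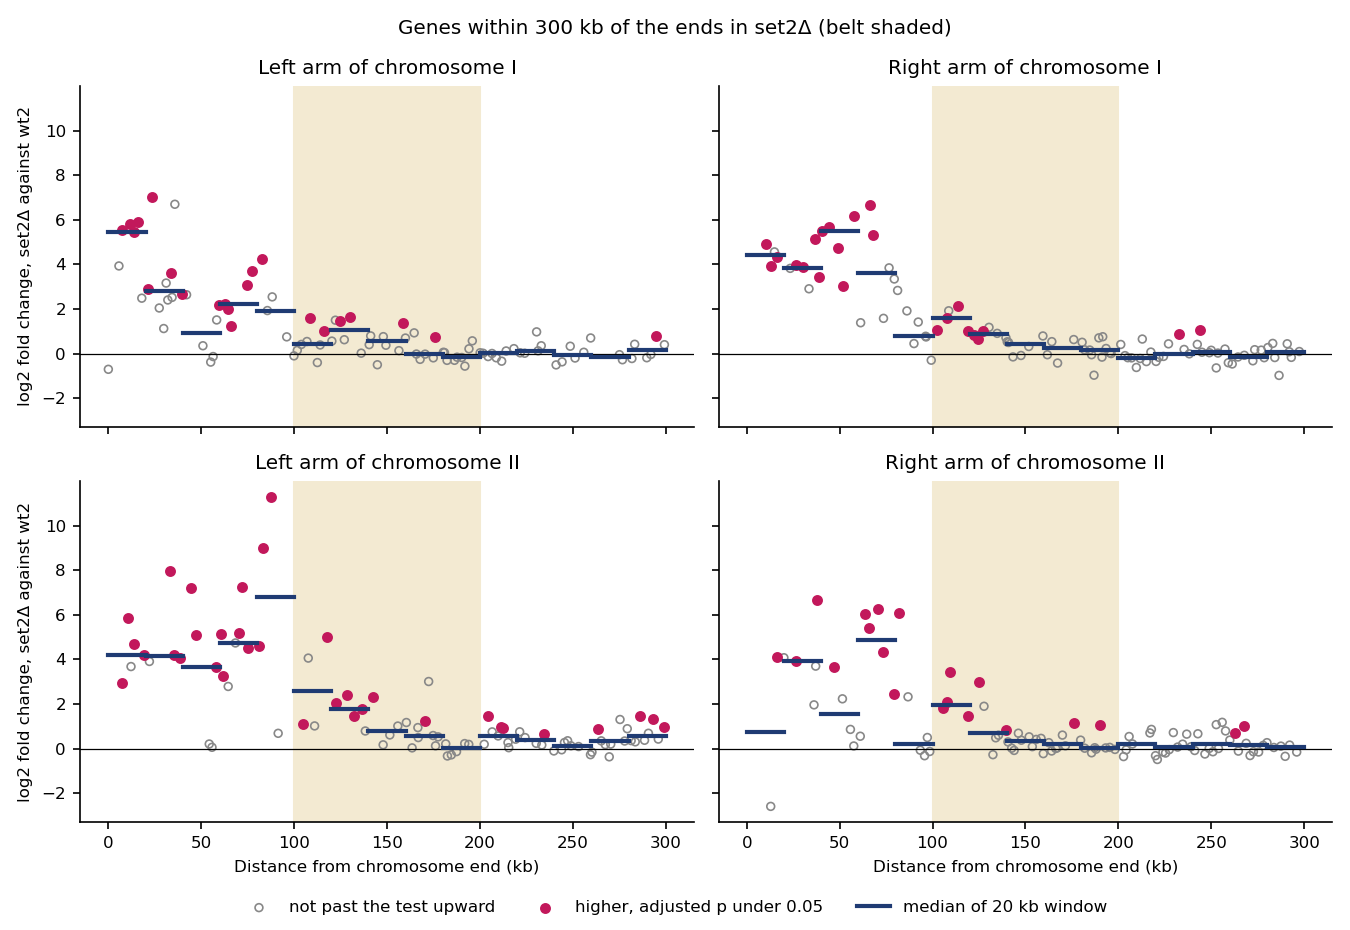
log2 fold change in set2Δ against wt2 (vertical axis) by distance from the chromosome end in kb (horizontal axis) for tested genes on the 4 arms; filled points are higher at an adjusted p under 0.05, bars are medians of 20 kb windows, and the belt, with the 5 genes that the rule drops by name, is shaded. On the right arm of chromosome I the median falls from 1.60 at 100 to 120 kb to 0.16 at 180 to 200 kb.

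The 4 arms held similar numbers of higher members, 6 of 36 on the left arm of I, 6 of 31 on the right arm of I, 6 of 24 on the left arm of II and 8 of 36 on the right arm of II. Their medians were 0.38, 0.53, 0.60 and 0.34 on the log2 scale in the same order. No test compared the arms. Without wt2 replicate 1 the 4 counts were 0, 1, 1 and 5, and without wt2 replicate 2 they were 1, 0, 1 and 3. Without set2Δ replicate 1 the left arm of I had 2 and the right arm of II 3, and without set2Δ replicate 2 the arms of chromosome I had 1 and 3. Over members that share no exon positions with another gene, the median was 1.22 on the left arm of II and 0.06 on the right arm of II. The value of 1.22 rests on few genes, since 19 of the 24 tested members on that arm share exon positions. On the right arm of II 13 of 36 do. The innermost higher member lay at 127.0 kb on the right arm of I (SPAC1039.03) and 170.2 kb on the left arm of II (cha4). It lay at 175.9 kb on the left arm of I (gpi7) and 190.3 kb on the right arm of II (chp2). Each distance rests on 1 call and is cut off by the belt edge at 200 kb. Farther in, genes outside the belt were higher on every arm. Among them were SPAC18B11.11 (left I, 294.6 kb), mtg2 (right I, 244.2 kb), mug184 (left II, 299.3 kb) and meu7 (right II, 267.5 kb).

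A stepwise reading gave another order. Going inward in 20 kb windows that include the genes the rule drops by name, each arm was followed until the share of tested genes that were higher dropped under 2 times the share over all genes. This put the reach at 180 kb on both left arms, at 140 kb on the right arm of II and at 80 kb on the right arm of I. On the left arm of II, windows past the stop again held higher genes, 3 of 9 at 200 to 220 kb and 3 of 8 at 280 to 300 kb. Between these, 0 of 6 were higher at 240 to 260 kb. On the right arm of I the series broke at 80 to 100 kb, where edgeR called 0 of 7 genes higher, 5 of them passed an unadjusted 0.05 and DESeq2 called 1. Just inside that gap, 4 of 5 genes at 100 to 120 kb and 3 of 6 at 120 to 140 kb were higher. With 10 kb windows the reach was 130, 70, 140 and 40 kb for left I, right I, left II and right II, and with 25 kb windows it was 200, 75, 175 and 150 kb. The reach thus moved with window width. Without any 1 of the 4 compared libraries it was 20 or 40 kb on the left arm of I. It was 40 kb on the right arm of II without either wt2 replicate or set2Δ replicate 1, and 0 kb on the left arm of II without wt2 replicate 2.

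Some higher members stood side by side. At 100 to 150 kb 37.5% of tested members were higher, and whether the runs exceed what that share gives was not tested. Ordered by distance among tested members, 14 of the 26 lay in 4 uninterrupted runs and 12 stood alone. The longest run, of 5 members, lay on the right arm of II from 105.6 to 125.1 kb and held SPBC8E4.03, SPBC8E4.04, SPBC8E4.05c, pfl5 and Tf2-11. A run of 4 on the right arm of I, from 118.9 to 127.0 kb, held SPAC1039.06, klf1, SPAC1039.04 and SPAC1039.03. On the left arm of I all 6 higher members stood alone.

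Among the members that passed the test in set2Δ, the largest log2 fold change lay on the right arm of chromosome II. SPBC8E4.05c (4430181-4431679), annotated as a fumarate lyase, was at 1.85 and 2.61 CPM in wt2 and at 23.4 and 24.7 CPM in set2Δ. The wt libraries lay at 3.17 and 4.22 CPM, so both set2Δ libraries exceeded all 4 parent libraries. Its log2 fold change was 3.43 (SE 0.33, adjusted p = 0.00025), a 10.8-fold difference. It shares exon positions with the non-coding row SPNCRNA.1691.

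Beside it stood SPBC8E4.04 (4432247-4433501), an aldo/keto reductase, with 33.4 and 30.5 CPM in wt2 and 129 and 148 CPM in set2Δ. The log2 fold change was 2.11 (SE 0.27, adjusted p = 0.00166). SPBC8E4.03 (4434194-4435868), annotated as agmatinase 2, an enzyme that splits agmatine into putrescine and urea, rose from 41.8 and 25.3 CPM to 125 and 115 CPM, by 1.84 (SE 0.34, adjusted p = 0.0109). In both genes the wt2 and set2Δ libraries did not overlap, and each shares exon positions with a non-coding row. For SPBC8E4.03 a cph2Δ library, at 174 CPM, was above both set2Δ libraries.

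Next inward on that arm, pfl5 (4420902-4425608), which encodes a cell-surface glycoprotein of the flocculin type, was at 29.7 and 23.9 CPM in wt2 and 78.1 and 70.1 CPM in set2Δ, a log2 fold change of 1.46 (SE 0.26, adjusted p = 0.00849). The retrotransposon Tf2-11 (4414657-4418658) was at 2.02 and 2.30 CPM in wt2 and 12.9 and 21.0 CPM in set2Δ, a log2 fold change of 2.97 (SE 0.44, adjusted p = 0.00381). Tf2 elements are near-identical copies dispersed over the genome, so which copy the reads came from is uncertain. Farther in lay adn2 (4400383-4402885), a transcription factor, with a log2 fold change of 0.83 (SE 0.21, adjusted p = 0.0434).

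The innermost higher member of the belt was also on this arm, as was SPBC1539.02, at 175.9 kb like gpi7 on the left arm of I. SPBC1539.02 (4363863-4367876), of unknown function, was at 16.2 and 17.1 CPM in wt2 and 39.5 and 35.3 CPM in set2Δ, a 2.24-fold difference (SE 0.22 on the log2 scale, adjusted p = 0.0122). It shares exon positions with 4 other annotated rows. The innermost, at 190.3 kb, was chp2 (4349487-4351244), which encodes a chromodomain protein of the heterochromatin protein 1 family that binds methylated histone H3. It was at 31.3 and 29.0 CPM in wt2, 29.7 and 23.6 CPM in wt, and 74.9 and 51.1 CPM in set2Δ, a log2 fold change of 1.06 (SE 0.22, adjusted p = 0.0167). Both set2Δ libraries exceeded all 4 parent libraries, and chp2 shares no exon positions with another gene.

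On the left arm of chromosome II the largest called difference was that of mug14 (128660-129742), an adducin-like gene named for its rise in meiosis. It was at 4.88 and 4.81 CPM in wt2 and at 22.1 and 28.6 CPM in set2Δ, a log2 fold change of 2.39 (SE 0.40, adjusted p = 0.00682). The wt libraries, at 24.8 and 11 CPM, overlapped those of set2Δ and lay above both wt2 libraries. SPBC1683.04 (142262-145393), a glycosyl hydrolase of family 3, was at 28.6 and 25.7 CPM in wt2, 81.1 and 53.3 CPM in wt, and 113 and 159 CPM in set2Δ. Here set2Δ exceeded both parents, and the log2 fold change against wt2 was 2.32 (SE 0.25, adjusted p = 0.00039).

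Between these lay pho841 (132353-136275), an inorganic phosphate transporter, and SPBC1683.02 (136622-138470), an adenine deaminase family gene. For pho841 the levels were 107 and 110 CPM in wt2, 246 and 359 CPM in set2Δ, and 440 and 556 CPM in wt. Its log2 fold change in set2Δ was 1.48 (SE 0.24, adjusted p = 0.00673), yet both set2Δ libraries stayed below both wt libraries. SPBC1683.02 went from 6.14 and 5.85 CPM to 18.2 and 23.5 CPM, a log2 fold change of 1.79 (SE 0.30, adjusted p = 0.00673). Its wt libraries lay between those of wt2 and set2Δ.

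Nearest the end on this arm, the amino-acid permease gene SPBC359.01 (104609-107221) was at 45.0 and 43.6 CPM in wt2 and 94.3 and 94.9 CPM in set2Δ (log2 fold change 1.09, SE 0.23, adjusted p = 0.0175). Farthest in, the transcription factor gene cha4 (170167-172271) was at 22.1 and 16.3 CPM in wt2 and 52.2 and 37.7 CPM in set2Δ (log2 fold change 1.22, SE 0.24, adjusted p = 0.0155). The largest estimate on the arm did not pass the test: alr2, an alanine racemase gene at 107.6 kb, had 4 and 0 reads in wt2 and 58 and 10 reads in set2Δ, with a fitted log2 fold change of 4.06 and an adjusted p of 0.185. Likewise fmd2, a formaldehyde dehydrogenase gene at 172.4 kb, had 0 and 3 reads in wt2 and 21 and 6 reads in set2Δ (adjusted p = 0.246). Their unadjusted p-values in edgeR were 0.0242 and 0.0403, so both missed the threshold after adjustment over all genes.

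On the right arm of chromosome I all 6 higher members lay within 127.0 kb of the end. The alpha-glucosidase gene gto1 (5471270-5474941) was at 36.5 and 33.3 CPM in wt2 and at 106 CPM in both set2Δ libraries, a log2 fold change of 1.60 (SE 0.26, adjusted p = 0.00673). SPAC1039.06 (5460198-5462354), annotated with D-serine ammonia-lyase activity, was at 53.5 and 54.0 CPM in wt2 and 105 and 113 CPM in set2Δ (log2 fold change 1.02, SE 0.17, adjusted p = 0.00673). The wt libraries of both genes lay below the set2Δ libraries.

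The zinc-cluster transcription factor gene klf1 (5456674-5459789) was at 56.1 and 59.0 CPM in wt2 and 98.7 and 105 CPM in set2Δ, a log2 fold change of 0.83 (SE 0.16, adjusted p = 0.0125). The esterase or lipase gene SPAC1039.03 (5452105-5453867) was at 86.2 and 73.9 CPM in wt2 and 186 and 141 CPM in set2Δ (log2 fold change 1.03, SE 0.19, adjusted p = 0.0106). Also higher were SPAC922.03, annotated as an aminocyclopropane-carboxylate deaminase, with a log2 fold change of 1.06, and SPAC1039.04, a carboxylic acid transporter gene, with 0.67. In all 6 of these genes both set2Δ libraries exceeded all 4 parent libraries. From 150 to 200 kb on this arm edgeR called 0 of 17 members higher, while 4 passed an unadjusted 0.05 and DESeq2 called 1.

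The left arm of chromosome I held 6 higher members, none of them adjacent. SPAC11D3.10 (124907-129053), of the cysteine desulfurase family, was at 13.2 and 12.3 CPM in wt2 and 28.1 and 41.8 CPM in set2Δ, a log2 fold change of 1.45 (SE 0.27, adjusted p = 0.0106). The gene hsp3104 (130148-131268), a glyoxalase III of the ThiJ family, was at 16.2 and 17.0 CPM in wt2, 35.3 and 69.1 CPM in set2Δ, and 57.6 and 39.8 CPM in wt, so that the wt and set2Δ libraries overlapped (log2 fold change against wt2 1.66, SE 0.39, adjusted p = 0.0323). The other 4 were SPAC11D3.01c (1.61), SPAC5H10.07 (1.39), the transcription factor gene toe4 (1.02) and gpi7 (0.74), which acts in the making of glycolipid membrane anchors. The gpi7 call had an adjusted p of 0.0481, and it was lost under another scaling and without any 1 of the 4 compared libraries.

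**Figure D2:**
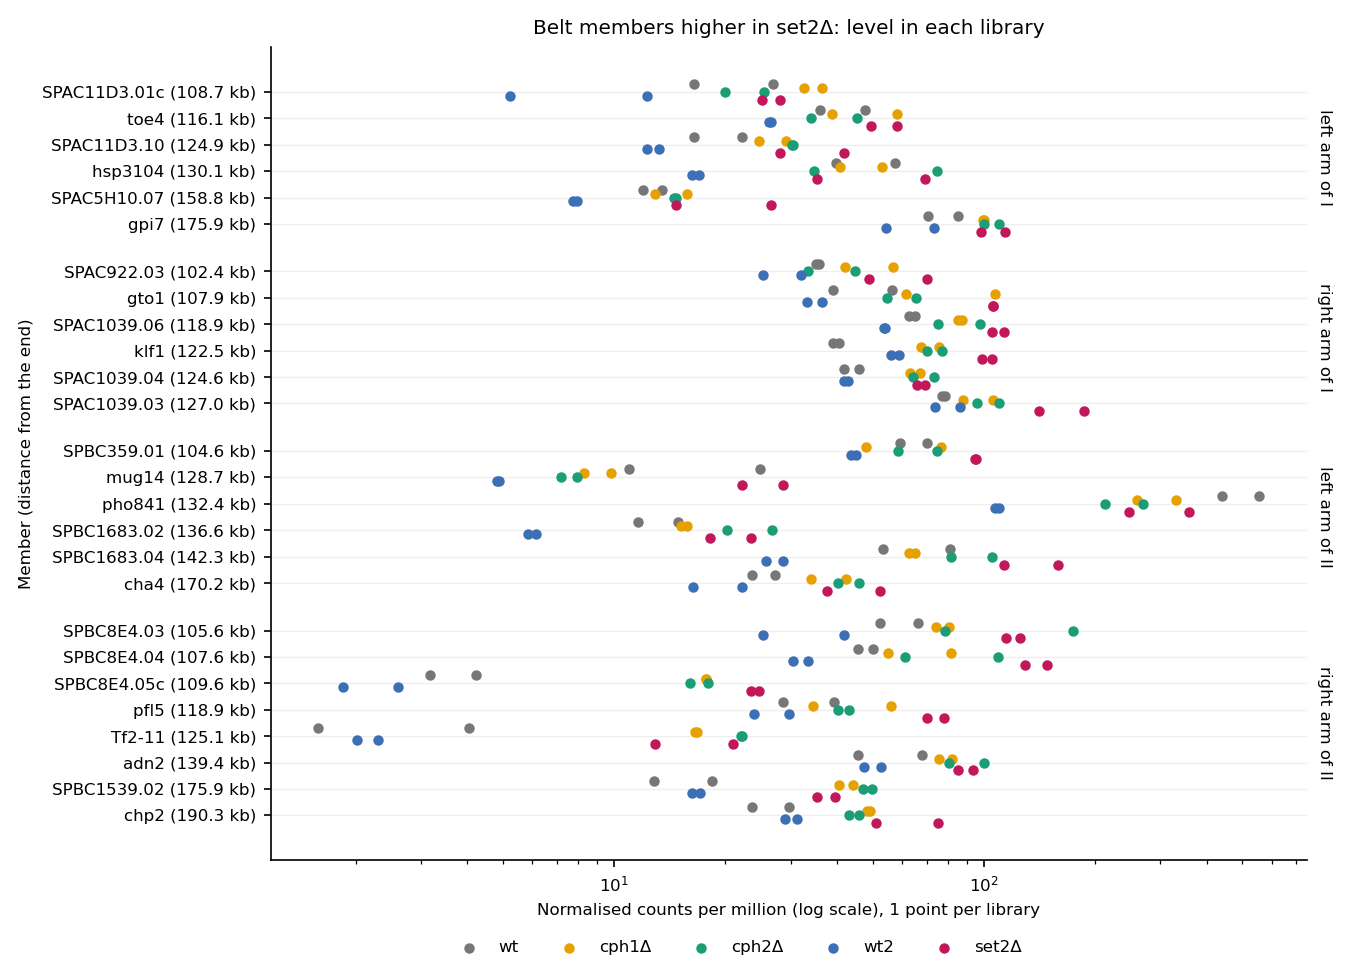
Normalised read counts (CPM, horizontal log axis) in each of the 10 libraries for the 26 members higher in set2Δ, ordered by arm and by distance from the end; each point is a library and colours mark the 5 strains. For SPBC8E4.05c the set2Δ libraries lie at 23.4 and 24.7 CPM and the highest of the 4 parent libraries at 4.22 CPM, while for pho841 both wt libraries lie above both set2Δ libraries.

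Members were also grouped by words in the product names. The counts of these groups in set2Δ stand beside 20.5% higher over the tested members and 4.32% over all genes tested. Of 8 tested transcription factor or DNA-binding genes, 4 were higher in set2Δ (cha4, toe4, adn2 and klf1), all 8 had a positive fold change, and the group's median was 0.81. Of 14 tested transporter or permease genes 3 were higher (pho841, SPBC359.01 and SPAC1039.04), with a median of 0.62. Their share of 21.4% was near that of the belt. The amino-acid permease aat1 was at 33.3 and 62.0 CPM in wt2, 81.9 and 111 CPM in set2Δ and 185 and 174 CPM in wt, and did not pass the test (log2 fold change 1.02, adjusted p = 0.174). Among 5 hydrolases and related enzymes 2 were higher (SPBC1683.04 and gto1), while the maltase gene mal1, with 19.2 and 9.09 CPM in wt2 and 26.6 and 17.0 CPM in set2Δ, was not (adjusted p = 0.423).

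Of 7 tested members whose product names mention a dehydrogenase, reductase or oxidase, 1 was higher, SPBC8E4.04; the word match also takes in spd1, an inhibitor of ribonucleotide reductase (-0.42, adjusted p = 0.293). Of 4 kinase or phosphatase genes edgeR called 0, among them SPAC1039.02, whose set2Δ libraries were far apart at 210 and 799 CPM. Of 4 tested ribosomal or ribosome biogenesis genes 0 were called, and all had negative fold changes, with rps601 at 3870 and 3860 CPM in wt2 and 3200 and 3080 CPM in set2Δ (-0.30, adjusted p = 0.67). The groups are small and no test compared them.

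The 26 higher members were less abundant in the parent than the other tested members. Their median level in wt2 was 15.1 CPM per kb of exon, with a range from 0.540 to 45.4, against 46 CPM per kb for the 101 members that were not called. Their median exon length was 2115.5 bases, against 1826 bases. Of the 26, 14 shared exon positions with another gene, against 64 of the 101. Transcription ran toward the chromosome end in 12 of the 26 and in 60 of the 101. The 219 genes higher in set2Δ over the genome had a median of 10.2 CPM per kb in wt2, against 33.4 over all genes tested. Their median exon length was 2143 bases, against 1763 over all genes tested. These are descriptions with no test. The wt2 level is the base of the fold change that made the calls, so a low wt2 level is partly built in. The depth of a gene also bears on whether it can pass the threshold.

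The wt2 parent itself was lower than wt in part of the belt. In wt2 against wt, 0 of 128 members were higher and 1 was lower; over all genes tested these shares were 0.0592% and 0.138%. At an unadjusted p under 0.05 edgeR found 1 member higher and 19 lower, and DESeq2 called 0 higher and 9 lower. The shares of 0.0592% and 0.138% are for the adjusted edgeR test and do not apply to these counts. The member that was lower was pho841, which fell by 2.20 on the log2 scale (SE 0.25, adjusted p = 0.00321). The count of lower members was 0 without wt2 replicate 2 and 3 without wt replicate 2. The median difference over the members was -0.15, and for the 9 members at 100 to 150 kb on the left arm of II it was -1.31. In the outermost 100 kb it was -0.76 over 109 genes.

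The levels in wt were therefore set beside each set2Δ call. Of the 26 higher members, 22 (84.6%) also had both set2Δ libraries above both wt libraries, compared with 94.5% of the 219 genes called higher over the genome. The share was 6 of 6 on the right arm of I and 8 of 8 on the right arm of II, but 4 of 6 on each left arm. In 17 of the 26 (65.4%) both wt2 libraries lay below both wt libraries, a pattern found in 48.9% of all genes higher in set2Δ and 18.1% of all genes tested. Genes higher in set2Δ were called against these same wt2 libraries, so an excess over the 18.1% is partly built in. Because wt and wt2 differ in several alleles and set2Δ was compared with wt2, strain background and the deletion cannot be told apart in a comparison of set2Δ with wt.

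**Figure D3:**
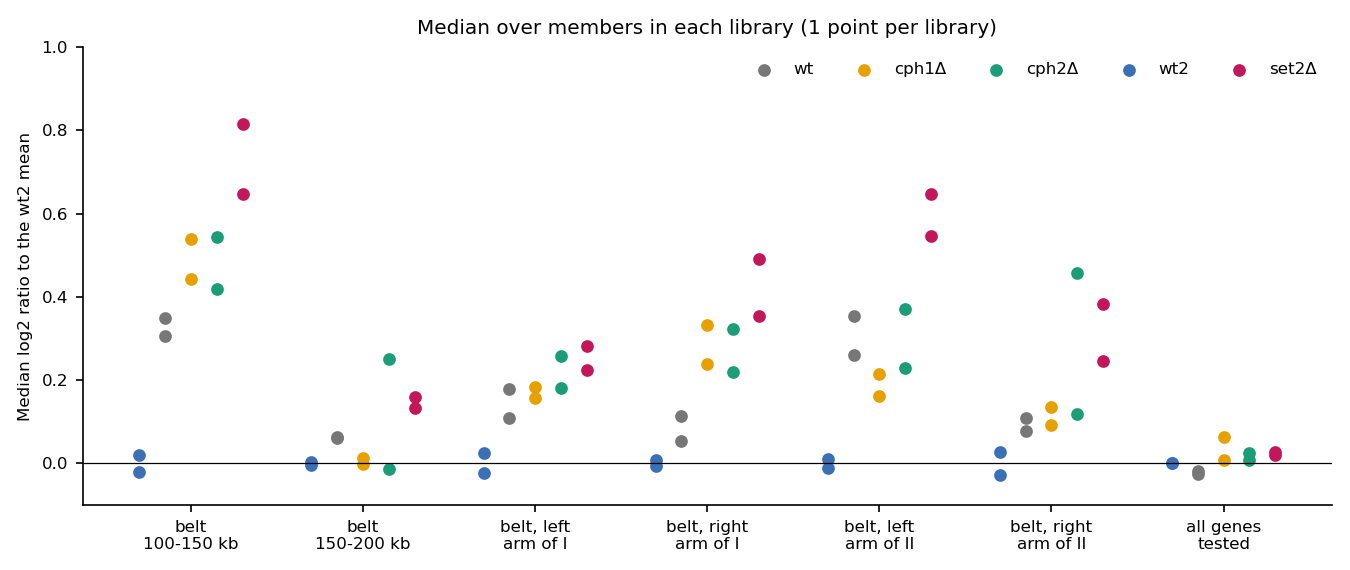
Median log2 ratio of the tested members to the wt2 mean (vertical axis) in each library, for the outer and inner part of the belt, for each arm of the belt and for all genes tested; each point is a library and colours mark the strains. At 100 to 150 kb the set2Δ libraries stand at 0.65 and 0.82, the wt libraries at 0.35 and 0.31, and the cph1Δ and cph2Δ libraries between 0.42 and 0.54.

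Measured against the wt2 mean with a pseudocount of 0.5 CPM, the median over the 56 members at 100 to 150 kb was 0.65 and 0.82 in the set2Δ libraries and 0.35 and 0.31 in the wt libraries. It was 0.54 and 0.44 in cph1Δ and 0.42 and 0.54 in cph2Δ. Both set2Δ libraries were the highest of the 10. Over the 71 members at 150 to 200 kb, the medians were 0.16 and 0.13 in set2Δ, within the range of the cph2Δ libraries, -0.01 and 0.25.

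Against their own parent wt, the Cph deletions called fewer members. In cph1Δ 9 of 128 members were higher and 0 lower, which is 7.03% higher, beside 5.31% higher and 0.316% lower over all genes tested. The members' median log2 fold change was -0.01. At an unadjusted p under 0.05 edgeR found 15 lower, and DESeq2 called 9 lower, counts to which the 0.316% does not apply. Without wt replicate 2 the total was 1, and without cph1Δ replicate 2 it was 4. In cph2Δ 10 members were higher and 3 lower, or 7.81% and 2.34%, beside 5.21% and 0.908% over all genes, with a median of 0.15. The total of 13 became 4 without wt replicate 2 and 3 without cph2Δ replicate 2.

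**Figure D4:**
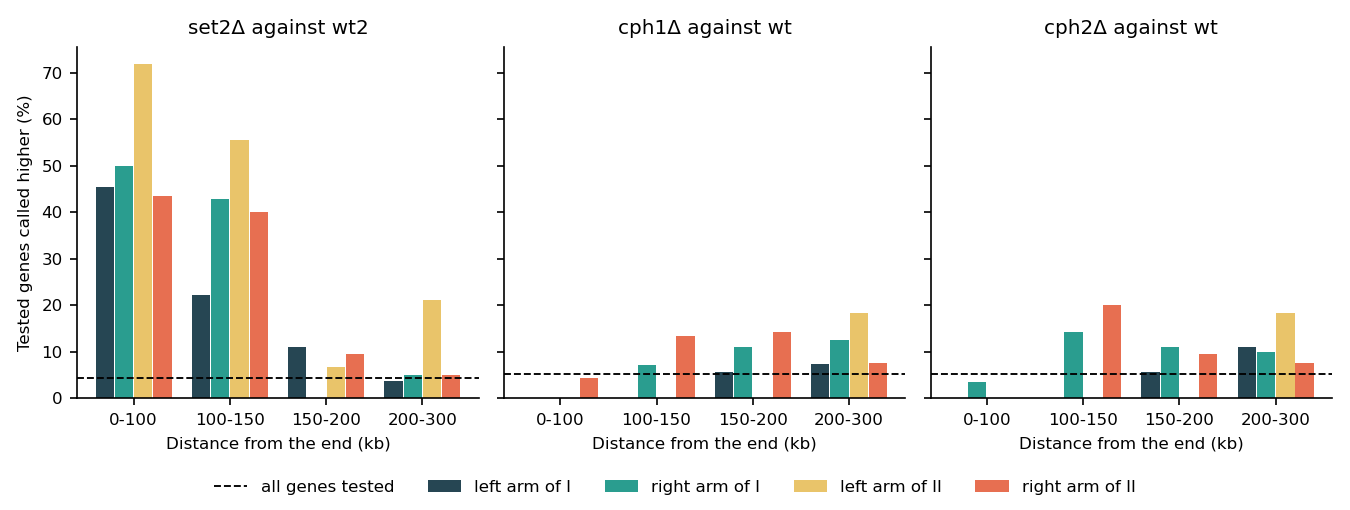
Share of tested genes called higher (vertical axis, percent) at 4 distances from the end, for each arm (colours) and each deletion against its parent; the dashed line is the share over all genes tested. In set2Δ the share at 100 to 150 kb runs from 22.2% on the left arm of I to 55.6% on the left arm of II, and in the 2 Cph deletions no zone of an arm exceeds 20%.

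The profile along the arm, here against wt, had another shape in the Cph deletions. The parents differ near the ends: wt2 against wt had a median of -0.76 in the outermost 100 kb. Over the belt on the left arm of II that median was -0.27. The profiles of set2Δ and of the Cph deletions thus rest on different parents, and the part of the parents in the contrast was not tested. In the outermost 100 kb, cph1Δ had 1 gene higher and 5 lower of 109, with a median of -0.21, and cph2Δ had 1 higher and 10 lower, with a median of -1.09. The outer and inner part of the belt held 3 of 56 and 6 of 72 higher members in cph1Δ, and 5 of 56 and 5 of 72 in cph2Δ. From 200 to 300 kb, 17 of 145 genes (11.7%) were higher in each Cph deletion, beside 8.97% in set2Δ. On the left arm of II edgeR called 0 of 24 members higher in either strain, with 0 lower in cph1Δ and 1 lower in cph2Δ. At an unadjusted p under 0.05 it found 4 higher and 7 lower in cph1Δ, and 3 higher and 6 lower in cph2Δ. DESeq2 called 0 higher in both strains, 4 lower in cph1Δ and 3 lower in cph2Δ.

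The members higher in all 3 deletions were 4, SPBC8E4.05c, Tf2-11, SPBC1539.02 and klf1. For SPBC8E4.05c the level was 17.7 CPM in both cph1Δ libraries and 16 and 17.9 CPM in cph2Δ, above all parent libraries and below both set2Δ libraries. Its log2 fold change was 2.26 (SE 0.32, adjusted p = 0.00286) in cph1Δ and 2.19 (SE 0.32, adjusted p = 0.00262) in cph2Δ, and neither differed from that in set2Δ past the test of the difference (adjusted p = 0.455 and 0.306). Tf2-11 was at 16.5 and 16.7 CPM in cph1Δ and 22.0 and 22.1 CPM in cph2Δ, within or above the range of set2Δ. SPBC1539.02 was at 44.2 and 40.6 CPM in cph1Δ and 47.0 and 49.7 CPM in cph2Δ, higher than in both set2Δ libraries. For klf1 the log2 fold changes were 0.85 and 0.89 in cph1Δ and cph2Δ, and its level in wt, at 40.5 and 39.0 CPM, was below that in wt2.

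Of the 26 members higher in set2Δ, 5 (19.2%) were also higher in cph1Δ, which is 55.6% of the 9 there; the fifth is chp2, at 49.2 and 48.2 CPM in cph1Δ. With cph2Δ the overlap was also 5, or 19.2% of the 26 and 50% of the 10, the fifth being SPAC1039.04. Over all genes the overlaps were 81 and 73 genes, 37.0% and 33.3% of those higher in set2Δ. These comparisons share no control library. Across the 127 members, the fold changes in set2Δ had a Spearman correlation of 0.48 with those in cph1Δ and 0.41 with those in cph2Δ, beside 0.44 and 0.31 over all genes tested. Pearson's r was 0.44 in both cases over the members, and 0.21 and 0.004 over all genes tested. These are descriptions across genes that share libraries and a common fit.

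Members higher in a Cph deletion that were not higher in set2Δ included chl1, a DNA helicase gene of sister chromatid cohesion at 180.5 kb on the right arm of I. It was at 52.8 and 48.7 CPM in wt, 92.1 and 105 CPM in cph1Δ and 81.6 and 99.5 CPM in cph2Δ, with log2 fold changes of 0.96 (SE 0.17, adjusted p = 0.00842) and 0.83 (SE 0.17, adjusted p = 0.016). In set2Δ it was at 71.6 and 80.9 CPM beside 52.7 and 54.7 CPM in wt2, which missed the threshold (0.51, adjusted p = 0.131). The chromatin remodeller gene ino80, next to set2, had log2 fold changes of 0.86 in cph1Δ (adjusted p = 0.0177), 0.77 in cph2Δ (adjusted p = 0.0292) and 0.63 in set2Δ (adjusted p = 0.0757). A p that misses the threshold does not show that these genes are level in set2Δ.

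The 3 members that were lower in cph2Δ were gmh2, pho841 and spd1. The galactosyltransferase gene gmh2, at 167.8 kb on the left arm of I, was at 237 and 423 CPM in wt and 148 and 114 CPM in cph2Δ and fell by 1.33 on the log2 scale (SE 0.26, adjusted p = 0.0137). The spd1 gene was at 302 and 312 CPM in wt and 163 and 147 CPM in cph2Δ and fell by 0.98 (SE 0.20, adjusted p = 0.016). In neither gene did the wt and cph2Δ libraries overlap. For pho841, cph2Δ lay at 269 and 213 CPM and the decrease was 1.05 (SE 0.24, adjusted p = 0.0258).

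The effect of the set2 deletion was tested directly against that of each Cph deletion. Over all genes tested, 0.75% had a larger and 0.118% a smaller effect in set2Δ than in cph1Δ, and 1.14% and 0.118% than in cph2Δ. Among the 127 members the larger effects numbered 3 in each case and the smaller 0; at an unadjusted p under 0.05 edgeR also found 0 smaller, and DESeq2 found 0 smaller. Without set2Δ replicate 2 each count of larger effects was 1. The 3 members were the same in both tests, mug14, pho841 and SPBC1683.04, all between 128.7 and 142.3 kb on the left arm of II. The wt libraries of all 3 genes lay above those of wt2, and this difference between the parents enters each difference of effects in full. For mug14 the effects differed by 3.37 (SE 0.55, adjusted p = 0.0113) from cph1Δ and by 3.63 (SE 0.55, adjusted p = 0.00774) from cph2Δ. For SPBC1683.04 the differences were 2.40 (SE 0.34, adjusted p = 0.0046) and 1.85 (SE 0.34, adjusted p = 0.0216). For pho841 they were 2.23 (SE 0.34, adjusted p = 0.00809) and 2.53 (SE 0.34, adjusted p = 0.00414).

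The coding genes next to set2 were looked at separately, since the inserted cassette lies among them. Of the 3 on each side, ino80, chl1, spd1 and the vitamin B6 synthesis gene snz1 were tested, with log2 fold changes in set2Δ of 0.63, 0.51, -0.42 and 0.54, and none passed the test. The other 2, the ribosomal protein gene rpl4101 and the methyltransferase gene mtq1, had 0 and at most 2 reads per compared library. Leaving these neighbours out left the count of higher members in set2Δ at 26; chl1 and ino80 are among the members higher in both Cph deletions.

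Some belt rows are not members. Of the 78 SPNCRNA rows in the belt, 28 were tested and 3 were higher in set2Δ, with a median log2 fold change of 0.79. That is 10.7%, beside 4.32% over all genes tested. Of the 5 genes dropped by name, 3 were higher: isp5 (2.12, adjusted p = 0.0115), pfl7 (5.02, adjusted p = 0.00451) and abc3 (2.04, adjusted p = 0.00319). The other 2 were frp1 (1.17, adjusted p = 0.0864) and ght4 (1.02, adjusted p = 0.0607). With pfl7, at 1.51 and 1.88 CPM in wt2, 48.4 and 62.0 CPM in set2Δ and 25 and 24.3 CPM in wt, the largest difference past the test at this distance was in a gene that is not a member.

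Genes of telomere and knob proteins, which lie outside the belt, were listed for comparison. Of 12 listed 11 were tested, and 2 were higher in set2Δ, taz1 (0.85, adjusted p = 0.0338) and pot1 (0.79, adjusted p = 0.037), which encode telomere-binding proteins. In cph1Δ 3 were higher, rap1, pot1 and ccq1, and in cph2Δ the same 3 and tpz1, 4 in all. Over all genes tested, 4.32% were higher in set2Δ, 5.31% in cph1Δ and 5.21% in cph2Δ. The list is small and was not tested as a set. The knob gene sgo2 had 0 counts in all libraries and shares exon positions with another gene, so it could not be measured. The heterochromatin histone methyltransferase gene clr4, with 20.5 and 15.3 CPM in wt2 and 22.2 and 30.3 CPM in set2Δ, was not called in set2Δ (adjusted p = 0.364).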

How the data were processed

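The authors deposited a table of raw read counts per gene with exon lengths. Per the file headers, featureCounts 2.0.1 counted reads over exons, summed by gene, against the ASM294v2 annotation. No strand, multi-mapping or overlap option was given, so reads in shared exon stretches and in repeated elements can be missing. STAR 2.7.10a, SAMtools 1.16.1 and Picard are named in the submitters' processing notes, without their roles.

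From the deposited counts, edgeR 4.0.16 (R 4.3.3) was run with TMM scaling, filterByExpr (5067 of 7268 genes kept, 2201 removed) and quasi-likelihood F-tests in 1 model of the 5 strains, with 5 residual degrees of freedom. P-values were adjusted over all tested genes. The model was also run on counts simulated from its own fitted spread and the wt2 means. Such a run cannot show that the model suits the real libraries. Libraries held 9711537 to 13051467 assigned counts, and genes with few reads carry the largest errors. Members were counted with set2 left out in set2Δ, and described by counts and medians without a test of the list. Exon length served for CPM per kb. Between the libraries of a strain, counts differed by more than sampling noise (chi-square per degree of freedom from 39.4 to 116), so none was treated as a duplicate.

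The members and the gene lists were chosen with earlier results of these data known. The genes named were set2 and its 3 coding neighbours on each side; on each arm up to 8 higher and 4 lower members in set2Δ, with a mean of at least 5 CPM and no overlap between deletion and parent libraries, and the innermost higher member; up to 5 per direction in the other comparisons and across all 3 deletions; and up to 3 per functional group. The member alr2, the runs of neighbours and the rows left out by the rule were picked after their values were seen. The alternatives were other scaling, no filter, the robust option, a fit of the compared strains only, a replicate block, DESeq2 1.42.0, each library left out, members without shared exons, members by midpoint, other windows, and a crossed pairing that was added after seeing the data. Promoter and protein sequences were not used here.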

Additional observations from a re-analysis of the deposited data

Results flagged for a closer look

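Belt members are listed here where the effect of the set2 deletion differed from that of a Cph deletion past the edgeR test of that difference. All 3 lie at 128.7 to 142.3 kb on the left arm of chromosome II. For mug14 the log2 fold change in set2Δ against wt2 exceeded that in cph1Δ against wt by 3.37 and that in cph2Δ against wt by 3.63. For SPBC1683.04 it exceeded them by 2.40 and 1.85, and for pho841 by 2.23 and 2.53. In all 3 genes both wt libraries lay above both wt2 libraries, with log2 differences of wt2 from wt of -1.89, -1.31 and -2.20. Each difference of effects equals set2Δ minus the Cph deletion plus wt minus wt2, so the parents' difference enters it in full. For pho841 the 2 are close in size, -2.20 beside a difference of effects of 2.23 from cph1Δ.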

How the results depend on the processing

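Each library was left out in turn and the called belt members were counted. For set2Δ the lowest and highest counts were 5 and 16 (26 with all libraries), for cph1Δ 1 and 11 (9), for cph2Δ 3 and 16 (13), for wt2 against wt 0 and 3 (1), 1 and 3 for the set2 effect minus the cph1 effect (3), and 1 and 4 for the set2 effect minus the cph2 effect (3). In set2Δ the count of higher members ranged from 5 to 13 at 100 to 150 kb and from 0 to 4 at 150 to 200 kb. By arm it ranged from 0 to 2 on the left arm of I, 0 to 4 on the right arm of I, 1 to 5 on the left arm of II and 3 to 7 on the right arm of II. The median log2 fold change ranged from 0.20 to 0.31, 0.42 to 0.52, 0.51 to 0.65 and 0.24 to 0.39 on the arms in the same order. The inward reach ranged from 20 to 40 kb on the left arm of I, 0 to 180 kb on the left arm of II and 40 to 140 kb on the right arm of II.

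Members that share no exon positions gave 12 calls in set2Δ, 9 at 100 to 150 kb and 3 at 150 to 200 kb, from fewer genes; by arm they gave 2 on the left arm of I and 3 on each right arm, with medians of 0.48 on the left arm of I, 1.22 on the left arm of II and 0.058 on the right arm of II. DESeq2 called 32 members for set2Δ, 6 of them at 150 to 200 kb. It called 19 for cph1Δ, 22 for cph2Δ and 9 for wt2 against wt. For the set2 effect minus the cph1 effect it called 7, and for the set2 effect minus the cph2 effect 5. A fit of the compared strains only gave 5 calls for each Cph deletion, and no filter gave 4 in wt2 against wt. The reach on the right arm of I was 140 kb with no filter, with the compared strains only and with DESeq2; on the left arm of I it was 40 kb with the robust option, and on the right arm of II 40 kb in 10 kb windows. The cause of these shifts was not tested.

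Samples with the same replicate number did not deviate together in every pair of strains: the correlation of deviations was -0.41 between wt and cph1Δ, 0.23 between wt and cph2Δ and 0.26 between wt2 and set2Δ, so the numbers are not taken to pair the samples. With a replicate block the called members were 24 for set2Δ, 8 for cph1Δ, 11 for cph2Δ, 1 for wt2 against wt and 3 for each difference of effects. A crossed pairing of cph1Δ, added after seeing the data, called 14 members, 10 higher and 4 lower. Of 473 values of named called genes under these alternatives, 365 stayed past the threshold, 108 did not and 0 changed sign. SPBC8E4.05c, SPBC8E4.04, Tf2-11 and SPBC1683.04 were called in all 10 alternative fits of set2Δ. With 2 libraries a strain, small effects and genes with few reads cannot be resolved.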
